A study of Bos taurus with 9 samples.

Results

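The genes described here encode enzymes of the citrate cycle and of mitochondrial fatty acid oxidation, together with a few proteins that steer fuel use by mitochondria. A fixed list of 39 genes defined the set, and a gene was followed wherever an array probe set carried its symbol and no other. That gave 44 probe sets for 35 genes, out of 24016 probe sets tested and 9155 genes with a symbol. Citrate cycle members numbered 15 of 18 listed and fatty acid oxidation members 20 of 21. The isocitrate dehydrogenase subunit gene IDH3B, the oxoglutarate complex gene DLST, the cytosolic malate dehydrogenase gene MDH1 and the electron transfer gene ETFDH had no such probe set and were not analysed here.

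Messenger RNA came from abdominal adipose tissue (the fat inside the belly), subcutaneous adipose tissue (the fat under the skin) and longissimus dorsi (the long muscle of the back), with 3 arrays of each tissue. Every animal was a male of the Yan yellow cattle, 24 months old and housed alike, and the labels name no treatment. The labels speak of 9 bulls and do not state which samples share an animal, so a p-value here measures the spread between samples, and the number of arrays limits the precision. Whole pieces of tissue were used, so fewer cells of a type and less RNA per cell cannot be told apart.

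The citrate cycle oxidises the acetyl group of acetyl-CoA in the mitochondrial matrix and hands its electrons to the respiratory chain. Fatty acids reach the same matrix as acyl-carnitines and are shortened there in a repeated spiral of dehydrogenation, hydration, a second dehydrogenation and thiolysis, which yields more acetyl-CoA. Skeletal muscle burns both products heavily for contraction, whereas white adipocytes mainly store and release fat and use citrate cycle carbon for fat synthesis as well.

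Values are given as log2 of the intensities, and a difference is adipose minus muscle, or abdominal minus subcutaneous, on that scale. A change was called at an adjusted p under 0.05 in a limma fit over all 24016 probe sets, with Benjamini-Hochberg adjustment. For the 8 members with several probe sets, the one with the highest mean over the 9 arrays stands for the gene. Between 46.1% and 49.0% of the probe sets of an array exceeded a log2 value of 6. Group means under 6 are treated as near background, which leaves the size of their differences inexact. The median of an array was on average 0.12 higher in fat than in muscle. The tissue labels held against their markers. All 7 measured adipocyte markers were higher in fat and 7 of 9 skeletal muscle fibre markers were lower, the exceptions being the slow myosin heavy chain MYH7 and the creatine kinase CKM by their brightest probe sets. As a measure of RNA quality, the 3'/5' intensity ratio of the GAPDH controls ran from 1.26 to 1.62 on abdominal fat arrays, from 1.21 to 1.74 on subcutaneous fat arrays and from 0.94 to 1.01 on muscle arrays. The same ratio for actin ran from 2.24 to 5.69 in abdominal fat, from 3.86 to 8.17 in subcutaneous fat, and from 0.963 to 1.04 in muscle. That for Ef1a ran from 0.473 to 0.622 in abdominal fat, from 0.529 to 0.650 in subcutaneous fat, and from 0.278 to 0.354 in muscle. These ratios moved with every comparison of fat with muscle below, and their part in them was not tested.

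Taking both fat depots together, 22 of the 35 genes were lower in adipose tissue than in muscle and 5 were higher, while 8 did not pass. Among all 9155 genes 29.5% were lower and 32% higher. The members were chosen with earlier results of these data known, so this is not a blind comparison with all genes. The median difference of the members was -0.91, beside -0.02 over all genes. The branches of the set differed in their counts. In the citrate cycle 14 of 15 genes were lower and none was higher, with a median of -0.98. In fatty acid oxidation 8 of 20 were lower and 5 higher, with a median of -0.17. The 22 lower genes passed whichever array was omitted, whereas the count of higher genes was 3 without muscle replicate 1.

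**Figure D1:**
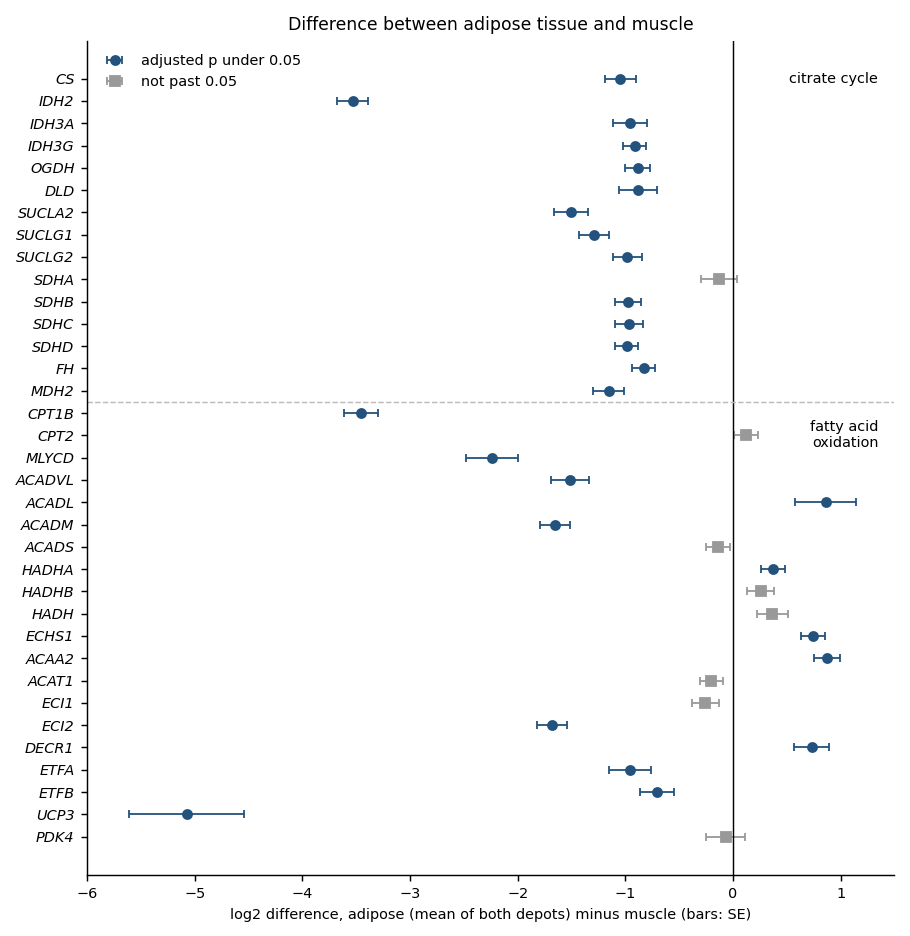
Log2 difference between adipose tissue (mean of both depots, 6 arrays) and muscle (3 arrays) for each of the 35 genes, with bars for the standard error. Blue circles passed an adjusted p of 0.05 and grey squares did not; citrate cycle genes above the dashed line sit between -1.51 and -0.83 except IDH2 and SDHA, while fatty acid oxidation genes below it lie on both sides of 0.

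The first steps of the citrate cycle were lower in fat. CS, citrate synthase, which joins acetyl-CoA to oxaloacetate, read 10.47, 10.74 and 10.80 on the abdominal arrays, 10.53, 10.66 and 10.69 on the subcutaneous arrays, and 11.47, 11.59 and 12.02 on the muscle arrays. Every fat array lay below every muscle array, and the difference was -1.05 ± 0.14 (SE, 3 arrays per tissue; limma adjusted p = 0.000174). The other CS probe set gave -1.23.

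IDH2, the mitochondrial isocitrate dehydrogenase that uses NADP, had the most negative difference of the citrate cycle members. It read 7.81, 7.92 and 8.17 in abdominal fat, 7.67, 8.08 and 8.24 in subcutaneous fat, and 11.42, 11.50 and 11.61 in muscle. The depots overlapped each other and stood far below muscle, by -3.53 ± 0.14 (SE; limma adjusted p = 8e-08), so that muscle was 11.6-fold higher. The muscle arrays spanned a narrow range and all group means were above 6.

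The NAD-dependent enzyme of the same step moved less. Its catalytic subunit gene IDH3A read 8.93, 9.36 and 8.74 in abdominal fat, 8.94, 9.27 and 8.75 in subcutaneous fat, and 10.00, 9.99 and 9.87 in muscle, a difference of -0.96 ± 0.16 (SE; limma adjusted p = 0.00067). The depots overlapped and both lay below muscle. A second, dimmer IDH3A probe set had overlapping tissues and a difference of -0.02 (adjusted p = 0.933), so the IDH3A call rests on the brighter one. The regulatory subunit gene IDH3G was lower by -0.91 ± 0.11, with no overlap between fat and muscle.

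The oxoglutarate dehydrogenase complex turns oxoglutarate into succinyl-CoA. OGDH, its first enzyme, averaged 7.64 ± 0.08 on abdominal fat arrays, 7.76 ± 0.09 on subcutaneous fat arrays and 8.58 ± 0.21 on muscle arrays (SD, n = 3 each), a difference of -0.88 (limma adjusted p = 0.000146). DLD, the dihydrolipoamide dehydrogenase that the pyruvate and branched-chain complexes also use, differed by -0.89 (limma adjusted p = 0.00213). Abdominal replicate 2 was its lowest array at 9.43, against 10.19 and 10.27 on the other abdominal arrays.

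Succinyl-CoA synthetase makes ATP or GTP in the cycle, depending on which beta subunit joins its common alpha subunit. The ADP-specific beta subunit gene SUCLA2 read 10.68, 10.84 and 10.30 in abdominal fat, 10.03, 10.46 and 10.42 in subcutaneous fat, and 11.87, 12.15 and 11.86 in muscle. Fat lay below muscle throughout, by -1.51 ± 0.15 (SE; limma adjusted p = 2.71e-05). The GDP-specific beta subunit gene SUCLG2 read 10.38, 10.20 and 10.62 in abdominal fat, 9.90, 10.04 and 9.58 in subcutaneous fat, and 11.06, 11.14 and 11.11 in muscle. Here the 3 tissues did not overlap, with abdominal fat between the others. SUCLG2 differed by -0.98 ± 0.13 from muscle, and the depot difference of 0.56 did not pass (limma adjusted p = 0.119). The alpha subunit gene SUCLG1 was lower in fat by -1.29 ± 0.14. Another SUCLA2 probe set was near background on every array, at 4.22 or less, and did not pass.

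In succinate dehydrogenase, which is also complex II of the respiratory chain, 3 of 4 subunit genes were lower in fat and SDHA did not pass. SDHA, the flavoprotein that holds the catalytic site, read 10.84, 10.57 and 11.15 in abdominal fat, 11.14, 10.997 and 10.66 in subcutaneous fat, and 10.87, 10.94 and 11.26 in muscle. The tissues overlapped, and the difference of -0.13 ± 0.17 (SE) did not pass (limma adjusted p = 0.533). SDHB, the iron-sulphur subunit, read 11.15, 11.35 and 11.55 in abdominal fat, 11.23, 11.50 and 11.39 in subcutaneous fat, and 12.25, 12.41 and 12.34 in muscle. It was lower in fat by -0.98 ± 0.12 (SE; limma adjusted p = 8.55e-05). The membrane anchors SDHC and SDHD were lower by -0.97 ± 0.13 and -0.99 ± 0.11. SDHA was thus the 1 citrate cycle gene of 15 that did not pass, under the fit as run.

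The last steps were lower in fat as well. FH, fumarate hydratase, differed by -0.83 ± 0.11 and its second probe set by -1.27. MDH2, the mitochondrial malate dehydrogenase, read 10.78, 11.003 and 11.35 in abdominal fat, 11.22, 11.44 and 11.44 in subcutaneous fat, and 12.17, 12.37 and 12.54 in muscle. Muscle was higher on every array, and the difference was -1.15 ± 0.15 (SE; limma adjusted p = 0.000104). A dimmer MDH2 probe set gave -1.06, an inexact size since it averaged 5.47 in abdominal and 5.65 in subcutaneous fat.

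**Figure D2:**
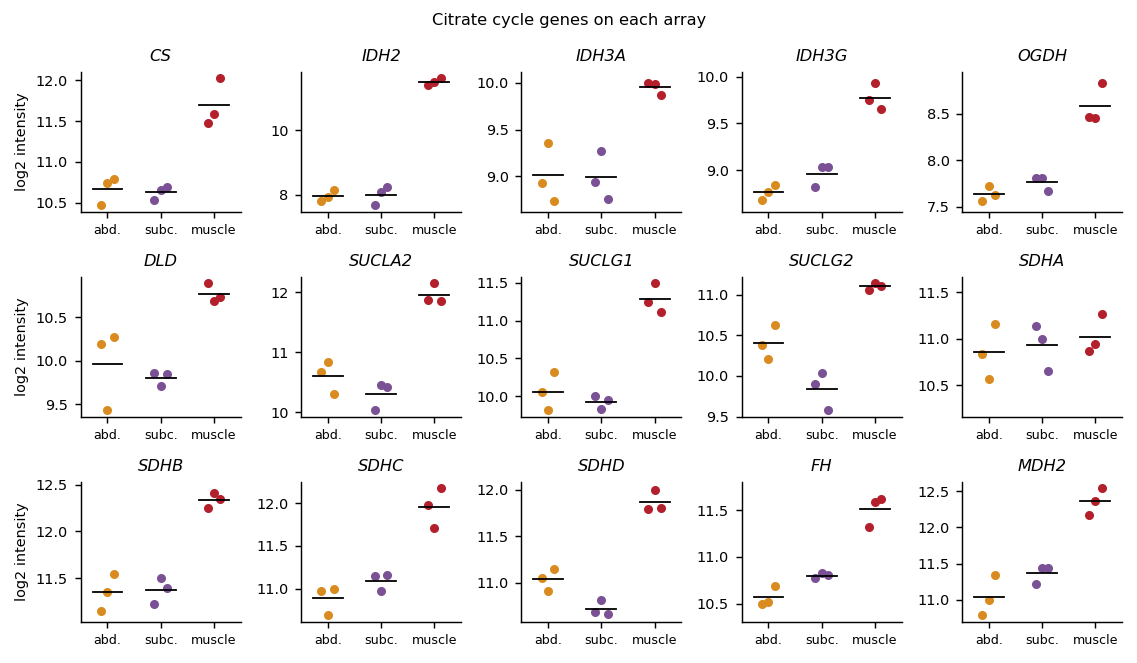
Log2 intensity of the 15 citrate cycle genes on each array, for abdominal fat, subcutaneous fat and muscle, with a black line at each mean and a vertical scale of its own for each gene. The fat and muscle points are apart for each gene except SDHA, and IDH2 has the widest gap.

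Of the 3 measured genes of fatty acid entry and its control, CPT1B and MLYCD were lower in fat and CPT2 did not pass. CPT1B, the muscle form of the outer-membrane carnitine palmitoyltransferase, which commits acyl groups to mitochondria, read 5.96, 5.83 and 5.86 in abdominal fat, 5.05, 5.66 and 5.70 in subcutaneous fat, and 8.98, 9.07 and 9.35 in muscle. All fat arrays were under 6, so the difference of -3.46 ± 0.16 (SE; limma adjusted p = 1.99e-07) is not exact in size. MLYCD, which degrades malonyl-CoA, the inhibitor of that step, read 7.14, 6.89 and 7.05 in abdominal fat, 7.68, 7.26 and 7.54 in subcutaneous fat, and 9.65, 10.07 and 8.77 in muscle. It was lower in fat by -2.24 ± 0.24 (SE; limma adjusted p = 3.84e-05), and muscle was 4.72-fold higher. CPT2, the inner-membrane partner of CPT1B, averaged 8.59 ± 0.06 on abdominal fat arrays, 8.86 ± 0.11 on subcutaneous fat arrays and 8.61 ± 0.19 on muscle arrays (SD, n = 3 each). Its difference of 0.12 ± 0.11 (SE) did not pass (limma adjusted p = 0.404), and it was -8.92e-06 with arrays centred on their medians.

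The acyl-CoA dehydrogenases open the spiral and are specialised by chain length. ACADM, for medium chains, read 10.83, 11.12 and 10.55 in abdominal fat, 10.23, 10.43 and 10.34 in subcutaneous fat, and 12.20, 12.38 and 12.14 in muscle. The 3 tissues did not overlap, and fat was lower by -1.66 ± 0.14 (SE; limma adjusted p = 6.91e-06), a 3.15-fold higher level in muscle. ACADVL, for very long chains, read 9.26, 9.56 and 9.35 in abdominal fat, 8.98, 9.19 and 8.57 in subcutaneous fat, and 10.37, 10.99 and 10.63 in muscle. Its difference was -1.51 ± 0.17 (SE; limma adjusted p = 5.71e-05), again with no overlap between the tissues.

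ACADL, for long chains, ran the other way. It read 8.89, 9.04 and 8.16 in abdominal fat, 8.09, 8.56 and 8.40 in subcutaneous fat, and 7.03, 8.36 and 7.60 in muscle, so both depots overlapped muscle. Fat was higher by 0.86 ± 0.29 (SE; limma adjusted p = 0.0283). Omitting muscle replicate 1 or 3 ended that call (adjusted p = 0.142 and 0.0748), as did omitting abdominal replicate 1 or 2 (0.0554 and 0.0557) and subcutaneous replicate 2 or 3 (0.0545 and 0.0509). The other ACADL probe set differed by 0.35 (adjusted p = 0.105). By depot, that probe set passed in abdominal fat against muscle (0.65, limma adjusted p = 0.0201). It did not in subcutaneous fat against muscle (0.05, adjusted p = 0.847). ACADS, for short chains, averaged 8.50 ± 0.08 on abdominal fat arrays, 8.49 ± 0.14 on subcutaneous fat arrays and 8.63 ± 0.15 on muscle arrays (SD, n = 3 each), and its difference of -0.14 ± 0.11 did not pass.

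The enzymes that complete the spiral gave no lower call in fat. ECHS1, the enoyl-CoA hydratase, read 12.43, 12.33 and 12.61 in abdominal fat, 12.72, 12.59 and 12.48 in subcutaneous fat, and 11.74, 11.90 and 11.71 in muscle. Every fat array was above every muscle array, by 0.74 ± 0.11 (SE; limma adjusted p = 0.00031). ACAA2, the mitochondrial thiolase of the last reaction, read 11.90, 11.78 and 11.59 in abdominal fat, 11.57, 11.96 and 11.65 in subcutaneous fat, and 10.93, 10.84 and 10.82 in muscle. It was 1.84-fold higher in fat (0.88 ± 0.12 on the log2 scale; SE; limma adjusted p = 0.0002), again without overlap.

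HADHA and HADHB encode the subunits of the trifunctional protein, which handles long chains at the inner membrane. HADHA read 9.22, 9.10 and 9.29 in abdominal fat, 9.10, 9.14 and 9.10 in subcutaneous fat, and 8.61, 8.99 and 8.76 in muscle. Fat lay above muscle without overlap, by 0.37 ± 0.11 (SE; limma adjusted p = 0.0181). The HADHA call ended when muscle replicate 1 was omitted (adjusted p = 0.0809) and with arrays centred on their medians (0.0847). HADHB differed by 0.26 ± 0.12 (adjusted p = 0.107) and HADH, the hydroxyacyl-CoA dehydrogenase for shorter chains, by 0.37 ± 0.14 (adjusted p = 0.0543), so neither passed. HADH passed with quantile normalization (adjusted p = 0.0258), without abdominal replicate 2 (0.036) or subcutaneous replicate 3 (0.0277) and under 3 other settings, and HADHB with quantile normalization (0.0454), with array weights (0.0304) and without muscle replicate 2 (0.0495). ACAT1, the acetoacetyl-CoA thiolase that also serves ketone bodies, differed by -0.20 ± 0.11 and did not pass (adjusted p = 0.138). It passed with centred arrays (-0.32, adjusted p = 0.026).

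Auxiliary enzymes let the spiral handle unsaturated fatty acids, and they moved in opposite directions. ECI2, an enoyl-CoA isomerase, read 7.63, 7.45 and 7.55 in abdominal fat, 8.15, 7.53 and 7.90 in subcutaneous fat, and 9.34, 9.49 and 9.32 in muscle. It was lower in fat by -1.68 ± 0.14 (SE; limma adjusted p = 6.99e-06). Its relative ECI1 differed by -0.26 ± 0.13 and did not pass (adjusted p = 0.111), though it did with centred arrays (-0.38, adjusted p = 0.0298) and quantile normalization (adjusted p = 0.0394). DECR1, the dienoyl-CoA reductase, read 8.44, 8.34 and 8.84 in abdominal fat, 8.41, 8.58 and 8.11 in subcutaneous fat, and 7.51, 7.72 and 7.94 in muscle. Fat was higher without overlap, by 0.73 ± 0.16 (SE; limma adjusted p = 0.00336), and the second DECR1 probe set gave 0.93.

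Electrons from the acyl-CoA dehydrogenases pass to the electron transfer flavoprotein. ETFA, its alpha subunit gene, differed by -0.96 ± 0.20 and ETFB, its beta subunit gene, by -0.71 ± 0.16 (SE; limma adjusted p = 0.00233 and 0.00376). Neither gene had a fat array that reached a muscle array.

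UCP3, an inner-membrane carrier of muscle linked to fatty acid use, had the most negative difference of all members. It read 2.93, 3.07 and 2.90 in abdominal fat, 2.70, 3.07 and 3.22 in subcutaneous fat, and 8.21, 9.58 and 6.37 in muscle. The fat values were near background, so the difference of -5.08 ± 0.53 (SE; limma adjusted p = 3.05e-05) is not exact in size. Its muscle arrays were also the most scattered of any member, with an SD of 1.61, against a median SD of 0.19 over the members in muscle.

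**Figure D3:**
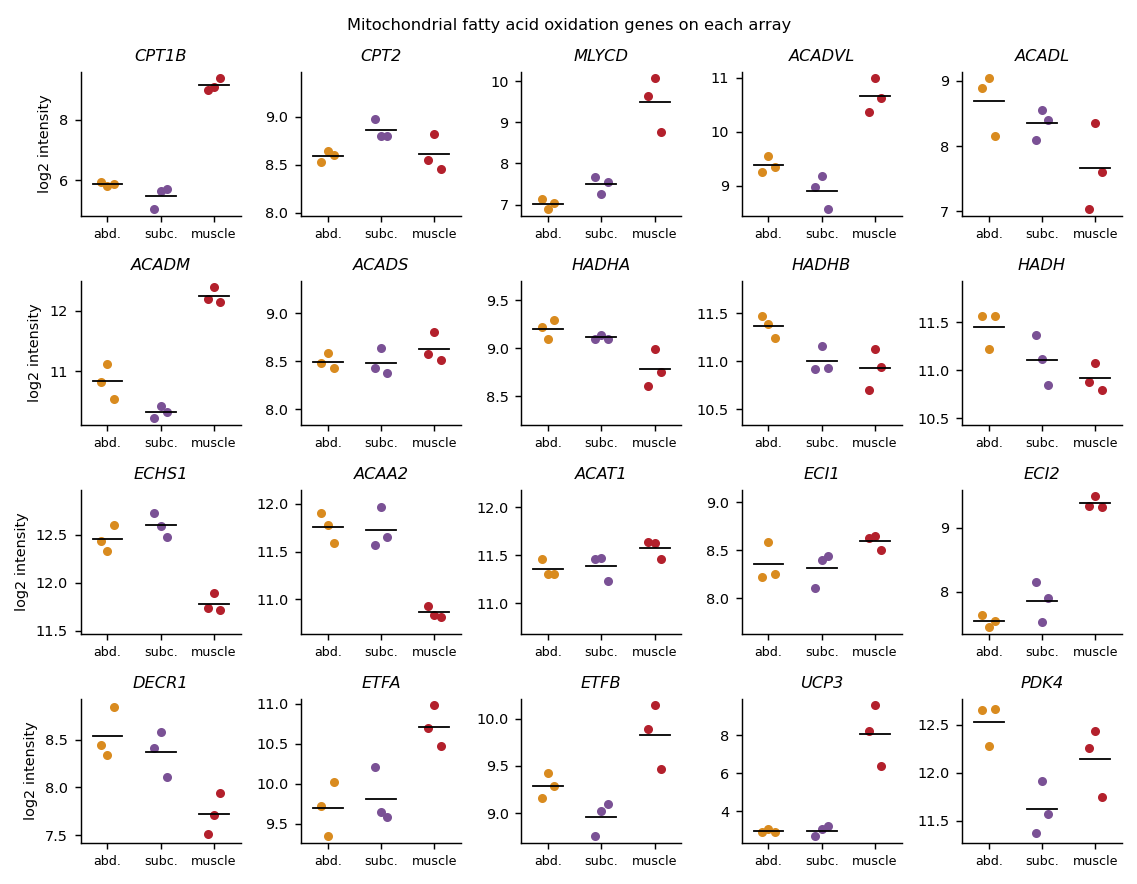
Log2 intensity of the 20 fatty acid oxidation genes on each array, for abdominal fat, subcutaneous fat and muscle, with a black line at each mean and a vertical scale of its own for each gene. CPT1B, MLYCD, ACADVL, ACADM, ECI2 and UCP3 are low in fat, ECHS1, ACAA2 and DECR1 are low in muscle, and muscle replicate 3 is the lowest of the UCP3, MLYCD and PDK4 muscle points.

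Each depot compared with muscle by itself gave the same number of lower genes. In abdominal fat 22 of 35 members were lower and 7 higher, where 27.1% and 29% of all genes were. In subcutaneous fat 22 were lower and 3 higher, where 25.9% and 30.4% of all genes were. The comparisons share the muscle arrays. The higher genes in abdominal fat were ACADL, HADHA, HADHB, HADH, ECHS1, ACAA2 and DECR1, with HADHB at 0.44 ± 0.14 (SE; limma adjusted p = 0.0298) and HADH at 0.54 ± 0.17 (adjusted p = 0.0231). In subcutaneous fat HADHB differed by 0.08 ± 0.14 and HADH by 0.20 ± 0.17, and neither passed (adjusted p = 0.686 and 0.357). The higher genes there were ECHS1, ACAA2 and DECR1. The DECR1 call (limma adjusted p = 0.0157) ended without muscle replicate 1 (0.0601) or subcutaneous replicate 2 (0.0609). It also ended with quantile normalization (0.0501) and at a threshold of 0.01. The depot difference itself was 0.36 for HADHB (adjusted p = 0.277) and 0.34 for HADH (adjusted p = 0.393). The abdominal count of higher genes was 3 without muscle replicate 1 or abdominal replicate 1, and the subcutaneous count was 6 without muscle replicate 2.

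No member passed between abdominal and subcutaneous fat by its brightest probe set in limma, where 0.808% of all genes were higher and 0.688% lower in abdominal fat. At an unadjusted p under 0.05 there were 7 of the 35, or 20%, beside 18% of all genes. The median difference of the members was 0.03, beside -0.04 over all genes. The most positive difference was that of PDK4, pyruvate dehydrogenase kinase, which switches off pyruvate entry into the citrate cycle and spares glucose when fat is burned.

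PDK4 was bright in every tissue and, with both depots together, did not differ by the test from muscle (-0.07 ± 0.18, SE; limma adjusted p = 0.775). That value averages depot differences of opposite sign. Abdominal fat differed from muscle by 0.39 and subcutaneous fat by -0.52 (limma adjusted p = 0.159 and 0.0652). The subcutaneous difference passed under 6 of 22 alternatives and the abdominal difference under 1. The brightest PDK4 probe set read 12.65, 12.28 and 12.66 in abdominal fat, 11.37, 11.91 and 11.57 in subcutaneous fat, and 12.26, 12.43 and 11.74 in muscle. The depots did not overlap each other, and muscle overlapped both. The difference of 0.91 ± 0.21 (SE) between abdominal and subcutaneous fat did not pass (limma adjusted p = 0.0715), although it did without muscle replicate 3 (adjusted p = 0.0426) and with array weights (0.0201). The dimmest of its 3 probe sets read 12.22, 11.97 and 12.23 in abdominal fat, 10.35, 10.78 and 11.05 in subcutaneous fat, and 11.66, 11.76 and 11.12 in muscle. That probe set separated all tissues, with a depot difference of 1.42 ± 0.21 (SE; limma adjusted p = 0.0232), the 1 call among the 44 probe sets. The remaining PDK4 probe set gave 1.10 ± 0.35 (adjusted p = 0.173).

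**Figure D4:**
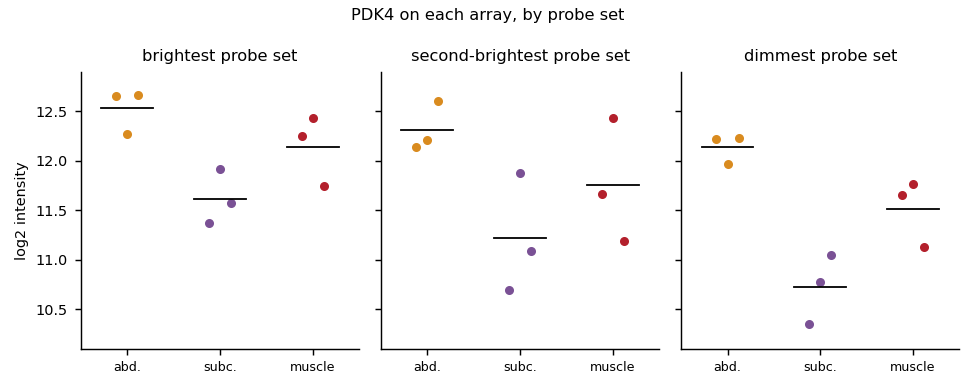
Log2 intensity of the 3 PDK4 probe sets on each array, in abdominal fat, subcutaneous fat and muscle, with a black line at each mean. On each probe set the abdominal points lie above the subcutaneous points, and the distance of both from muscle depends on the probe set.

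Other members had separate depots without passing the test. SUCLG2, SDHD, ACADVL, ACADM, CPT1B, HADHB and ETFB were higher on every abdominal array than on any subcutaneous array, and FH, CPT2 and MLYCD lower. With PDK4 that made 8 of 35 members higher without overlap, where 10.7% of all genes were, and 3 lower, where 17.9% were. ACADM had a depot difference of 0.50 ± 0.16 (SE; limma adjusted p = 0.17) and ACADVL one of 0.48 ± 0.20 (adjusted p = 0.311). MLYCD had the most negative depot difference, at -0.47 ± 0.28 (adjusted p = 0.505).

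Log2 ratios within an array set partners of 1 enzyme, or relatives of 1 family, against each other. All 20 pairs of measured members within 8 such groups were compared between the 6 fat and 3 muscle arrays by a two-sided exact permutation test, a family added after the values had been seen. The test doubles the smaller one-sided p, so the smallest p that 84 splits allow is 0.0238. It was reached by 9 pairs, with an adjusted p of 0.0529 over the 20 pairs. None therefore passed. The log2 ratio of SDHA to SDHB averaged -0.47 ± 0.26 in fat (SD, n = 6) and -1.31 ± 0.21 in muscle (SD, n = 3), without overlap. SDHA to SDHC and SDHA to SDHD shifted by 0.84 and 0.86 in the same direction. The pairs of SDHB, SDHC and SDHD among themselves shifted by -0.01 to 0.02, with an exact p of 0.905 or more.

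Among the acyl-CoA dehydrogenases the ratio of ACADL to ACADM averaged -2.06 ± 0.19 in fat and -4.58 ± 0.57 in muscle (SD), a shift of 2.52. The ratio of ACADM to ACADS shifted by -1.52 and that of ACADVL to ACADM by 0.14 (exact permutation p = 0.429). In the isomerases the ratio of ECI1 to ECI2 shifted by 1.43 without overlap. The ratio of SUCLA2 to SUCLG2 averaged 0.33 ± 0.41 in fat and 0.86 ± 0.14 in muscle (SD), and its shift of -0.52 did not pass (exact permutation p = 0.0714). The ratio of HADHA to HADHB shifted by 0.11 (exact permutation p = 0.381) and that of ETFA to ETFB by -0.25 (exact permutation p = 0.452).

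**Figure D5:**
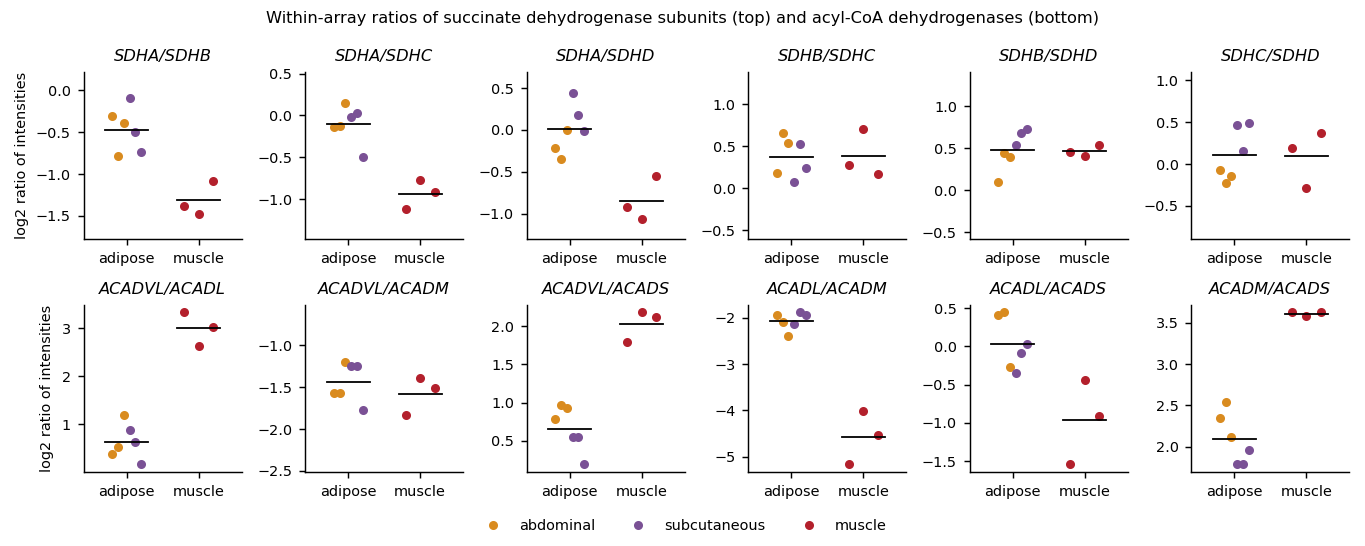
Log2 ratio of intensities on each array for all pairs of succinate dehydrogenase subunits (top) and of acyl-CoA dehydrogenases (bottom), in adipose tissue (6 arrays, coloured by depot) and muscle (3 arrays), with a black line at each mean. Ratios with SDHA separate the tissues and those among SDHB, SDHC and SDHD do not; below, the pair ACADVL/ACADM overlaps and the other pairs are apart.

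Arrays of 1 tissue also differed from each other across the members. Muscle replicate 2 was the highest muscle array for 16 of 20 fatty acid oxidation genes and for 6 of 15 citrate cycle genes, and muscle replicate 3 the lowest for 14 and 4. Abdominal replicate 3 was the highest abdominal array for 12 of 15 citrate cycle genes and for 6 of 20 fatty acid oxidation genes. The median SD within a tissue was 0.17 for abdominal fat, 0.18 for subcutaneous fat and 0.19 for muscle. In muscle the widest spreads after UCP3 were those of ACADL (0.67), MLYCD (0.66) and PDK4 (0.36).

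Neighbouring genes outside the set were read from lists of pathway members, beside 29.5% lower and 32% higher among all genes. Around pyruvate entry and the citrate cycle, 9 of 16 measured genes were lower in fat and 3 higher, with a median of -0.77. The higher ones were IDH1, the cytosolic isocitrate dehydrogenase that uses NADP (3.12 ± 0.14), pyruvate carboxylase, PC, which refills oxaloacetate (2.47 ± 0.21), and the cytosolic aconitase ACO1 (2.07 ± 0.18). IDH1 averaged 11.78 on abdominal fat arrays, 11.85 on subcutaneous fat arrays and 8.70 on muscle arrays, opposite to its mitochondrial relative IDH2. The mitochondrial pyruvate carrier subunit MPC2 was lower (-1.78 ± 0.12).

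Of 18 other fatty acid oxidation genes 8 were lower and 4 higher, where 29.5% and 32% of all genes were. The median of these 18 was -0.41. FABP3, the fatty acid binding protein of muscle, differed by -7.33, ACACB, which makes the malonyl-CoA that MLYCD removes, by -3.37, the coactivator PPARGC1A by -2.98 and the carnitine acetyltransferase CRAT by -1.86. ACACB and PPARGC1A averaged under 6 in both depots, and FABP3 in subcutaneous fat. Peroxisomal oxidation had 4 of 6 genes higher and none lower, with a median of 1.30: CROT, the carnitine octanoyltransferase (1.82), the oxidase ACOX3 (1.78), the multifunctional enzyme HSD17B4 (1.68) and the thiolase ACAA1 (0.91). The single measured gene of ketone body use, BDH1, was lower (-4.67), an inexact size since it averaged under 6 in subcutaneous fat. All 4 measured genes of the malate-aspartate shuttle, which carries cytosolic reducing power inward, were lower: SLC25A12 (-2.41), GOT1 (-2.33), SLC25A11 (-2.21) and GOT2 (-1.80). Respiratory chain genes were lower in 18 of 19 cases, with a median of -1.01, which is near that of the citrate cycle. COX6A2 (-5.53), COX7A1 (-3.70), NDUFS3 (-1.91) and UQCRC2 (-1.85) were the most negative, and COX6A2 was near background in fat.

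Markers of other cell types moved with the same comparison. In summed intensity, the 5 endothelial markers ran from 3810 to 4407 on abdominal fat arrays, from 2782 to 2861 on subcutaneous fat arrays and from 575 to 711 on muscle arrays. The 5 macrophage markers ran from 4585 to 9412 on abdominal fat arrays, from 4778 to 9993 on subcutaneous fat arrays and from 770.0 to 2055 on muscle arrays. Of these lists 4 of 5 and 5 of 5 were higher in fat, where 32% of all genes were. So were 4 of 5 fibroblast, 5 of 5 smooth muscle and 1 of 4 lymphocyte markers, the last being PTPRC. Lower were 2 of 3 red blood cell markers, where 29.5% of all genes were. All 3 red blood cell markers averaged under 6 in both depots. The endothelial markers KDR and VWF and the lymphocyte markers CD3E, CD3D and CD79A averaged under 6 in every tissue. VWF was the endothelial marker that did not pass. The 9 fibre markers summed to between 3337 and 6473 in abdominal fat, 3553 and 4475 in subcutaneous fat, and 57925 and 68876 in muscle. These sums include MYH7 and CKM, which were higher in fat, so the fat sums do not measure fibre content alone. MYH7 averaged 11.41 in abdominal and 11.11 in subcutaneous fat, and CKM 10.32 and 9.76. The 7 adipocyte markers summed to between 36857 and 38928 in abdominal fat, 31669 and 33289 in subcutaneous fat, and 5706 and 10439 in muscle. Of the brown adipocyte markers, UCP1, which defines those cells, averaged under 6 in all tissues (adjusted p = 0.838), whereas CIDEA, a lipid droplet protein, was higher in fat (2.87 ± 0.28). Between the depots 1 of 5 endothelial markers passed, the receptor TEK, which was higher in abdominal fat by 1.09 (adjusted p = 0.0293). The part of these cells in the differences of the members was not tested.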

How the data were processed

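Intensities of an Affymetrix bovine array, 1 colour and 1 value per probe set, were deposited by the authors on a linear scale (3.06 to 17450.5); per the submitters' processing notes RMA was used, with settings not given in the sources used here. RMA usually writes log2 values, so the log2 was taken before any step, with no further scaling or filter. Per the labels, the kit for lipid-rich tissue was named for adipose samples. If muscle was extracted otherwise, kit and tissue cannot be told apart in the comparisons of fat with muscle. The 112 control probe sets were left out. Names came from the array annotation, updated by gene identifier to the RefSeq table (ARS-UCD2.0): 13292 probe sets had 1 symbol, 86 several and 10638 none. A means model of 3 tissues was fitted with limma 3.58.1 (lmFit, eBayes) in R 4.3.3 on 9 arrays, two-sided, with Benjamini-Hochberg adjustment over 24016 probe sets. Every measured member was named; of each pathway list, up to 4 passing genes with the largest difference were named. Members and lists were chosen with earlier results of these data known. Exact permutation tests used scipy 1.17.1 and figures matplotlib 3.10.9 in Python 3.11.15. Data were simulated with 200 changed probe sets of 24016 and independent normal noise. The fit for adipose tissue against muscle found 18%, 72%, 96.4% and 99.6% of those changed by 0.5, 1, 2 and 4 on the log2 scale. Of its calls, 6.07% were false. In the real comparison 29.5% of genes were called lower and 32% higher, so these shares need not hold there. Alternatives covered prior variance, dim probe sets, scaling, an offset, array weights, a block, the arrays fitted, the probe set of a gene, the threshold and each array left out. Sequences and genome positions were not used here.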

Additional observations from a re-analysis of the deposited data

Results flagged for a closer look

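PDK4 by its dimmest probe set was singled out because abdominal and subcutaneous fat differed from each other in a test of the depot difference itself, at 1.42 ± 0.21 on the log2 scale (SE, 3 arrays per depot; limma adjusted p = 0.0232). Every abdominal array lay above every muscle array and every subcutaneous array below, with differences from muscle of 0.62 (adjusted p = 0.0371) and -0.79 (adjusted p = 0.0126). The other PDK4 probe sets pointed the same way between the depots, at 0.91 and 1.10, and did not pass. The endothelial marker TEK was also higher in abdominal fat, by 1.09 (adjusted p = 0.0293), 1 of 5 endothelial markers to pass, and its part in the PDK4 difference was not tested.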

How the results depend on the processing

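Of the members called in the comparison with muscle, 23 of 27 for both depots together, 22 of 29 for abdominal fat and 22 of 25 for subcutaneous fat passed under every alternative run for them, of 21 for both depots together and 22 for each depot. CPT1B and UCP3 were not tested with probe sets required over 6 on all arrays. The lower counts stayed within 21 to 23 when an array was left out, and the higher counts varied more. With both depots the 5 higher genes became 3 at a threshold of 0.01 and 3 to 6 with an array left out. In abdominal fat the 7 became 4 with centred arrays, 4 with the title number as a replicate block, 4 with the tissues compared alone, 3 at a threshold of 0.01 and 3 to 7 with an array left out. In subcutaneous fat the 3 became 5 with array weights and 2 to 6 with an array left out. Between the depots the count of 0 became 1 with array weights, 1 by the dimmest probe set, 1 over all probe sets and 0 to 1 with an array left out, PDK4 in each case. The causes were not tested.

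Same-numbered arrays, by the number that leads their titles, had deviation correlations of 0.0431 to 0.362, with 5 of 7 pairs over 0.1, against 1 of 20 pairs with different numbers. The labels do not say what the numbers mark and not every pair was over 0.1, so the samples were not treated as paired. With that replicate block 22 members were lower and 4 higher in fat, and none passed between the depots. Abdominal replicate 3 had a title number that no other array shared. Under the block, the comparisons of abdominal fat therefore rested on its other arrays. Calls lost there cannot be told apart from the loss of that array. HADHA no longer passed in fat against muscle (adjusted p = 0.0681), nor did HADHA (0.136), HADHB (0.0602), HADH (0.136) and ETFB (0.0588) in abdominal fat against muscle, while ACADL passed in subcutaneous fat against muscle (0.0378).

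Signs turned in differences that had not passed, apart from IDH3A in subcutaneous fat against muscle, at 0.33 by its dimmest probe set. Centring gave -8.92e-06 for CPT2 in fat against muscle and -0.046 for HADHB in subcutaneous fat against muscle, and quantile normalization 0.016 for PDK4 in fat against muscle. Between depots the replicate block gave -0.028 for SUCLG1 and -0.0086 for ACADS, the mean of probe sets -0.34 for IDH3A, and the dimmest probe set -0.71 for IDH3A and -0.058 for SUCLA2. With an array left out, PDK4 in fat against muscle ran from -0.27 to 0.074, CPT2 in abdominal fat against muscle from -0.092 to 0.093, and in subcutaneous fat against muscle SDHA from -0.20 to 0.045 and HADHB from -0.034 to 0.18. Between depots the ranges were -0.021 to 0.14 for CS, -0.19 to 0.087 for IDH2, -0.16 to 0.16 for IDH3A, -0.23 to 0.067 for SDHA, -0.12 to 0.076 for SDHB, -0.041 to 0.093 for ACADS, -0.052 to 0.14 for ACAA2, -0.11 to 0.012 for ACAT1, -0.079 to 0.10 for ECI1, -0.28 to 0.084 for ETFA and -0.17 to 0.087 for UCP3. Signal near background limits CPT1B and UCP3 in fat, whose differences are inexact in size.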
